A study of Mus musculus with 22 samples.

Results

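The miR-26 family was followed through small RNA libraries of isolated round spermatids (RS), germ cells that have completed meiosis and are haploid, in WT mice and in mice with a lost or changed GRTH/DDX25, a testis RNA helicase. The family was taken by name, as the 4 mature products mmu-miR-26a-5p, mmu-miR-26b-5p, mmu-miR-26a-1-3p and mmu-miR-26b-3p (mmu, for mouse, is left out from here on) out of 1966 mature miRNA names in the count table, and all 4 were found. The remaining product of the family, miR-26a-2-3p, was not on the list and is given only to set both miR-26a hairpins side by side. Batch 1 held 5 WT and 5 GRTH KO samples and batch 2 held 6 WT and 6 GRTH KI samples, so each mutant has WT samples of its own batch. GRTH is absent in KO mice, while KI mice carry the human GRTH gene with a point mutation and lack the phosphorylated form of the protein. The labels give RS from testes of mice aged 75 to 85 days for all 4 groups. Samples are numbered in the labels without naming animals, so the p-values measure the spread between these samples. RS were enriched by sedimentation through a BSA gradient, which leaves room for other testis cells in each preparation.

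A miRNA is cut from a hairpin whose arms give a 5p and a 3p product, and one of them is usually loaded into Argonaute while the other is degraded. The loaded product finds mRNAs mainly through its seed, bases 2 to 8 from the 5′ end, and lowers their translation or stability. miR-26 is abundant in most differentiated mouse tissues and is known as a repressor of Ezh2 and of factors that block let-7 maturation. Its hairpins lie in introns of Ctdsp1, Ctdsp2 and Ctdspl, which encode small phosphatases that act on the C-terminal domain of RNA polymerase II and are known as repressors of neuronal genes outside the nervous system.

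The mature sequences, from RefSeq on build GRCm38.p6, show which products can share targets and how far the products differ. The seed is in capitals.
miR-26a-5p: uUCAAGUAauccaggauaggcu
miR-26b-5p: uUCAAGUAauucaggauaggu
miR-26a-1-3p: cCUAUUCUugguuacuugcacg
miR-26a-2-3p: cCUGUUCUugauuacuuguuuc
miR-26b-3p: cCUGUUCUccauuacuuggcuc
Both 5p products had the seed UCAAGUA, and among the 1675 names of the table with a RefSeq sequence no other product had it. miR-26b-5p, with 21 bases, matched the first 21 of the 22 bases of miR-26a-5p at 19 positions and differed by C11U and C21U, where positions are counted from the 5′ end and the base of miR-26a-5p comes first. The 3p products differed more, with 6 differences over 22 bases between miR-26a-1-3p and miR-26a-2-3p. One of them lay in the seed (A4G, with the base of miR-26a-1-3p first), so miR-26a-2-3p had the seed of miR-26b-3p and not that of miR-26a-1-3p.

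miR-26a-5p is made from 2 hairpins with the same 5p sequence. On GRCm38 its loci were chr10:126995543-126995564 in Ctdsp2 and chr9:119031811-119031832 in Ctdspl, and miR-26b-5p lay at chr1:74394324-74394344 in Ctdsp1. The 3p products were at chr10:126995581-126995602 (miR-26a-2-3p), chr9:119031850-119031871 (miR-26a-1-3p) and chr1:74394360-74394381 (miR-26b-3p). Every locus was on the plus strand, as its host gene was, and lay in an intron with no exon of the host over it. In the principal coding transcripts of GENCODE vM21 this was intron 5 of 7 in Ctdsp2, intron 5 of 7 in Ctdspl and intron 4 of 6 in Ctdsp1, so 2 further introns followed in each host.

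Library totals ran from 559957 to 3239357 counts and were lowest in KO, at 559957 to 881323, against 870913 to 1081333 in the WT samples of batch 1. In batch 2 they ran from 2067322 to 3239357 in WT and from 2107461 to 3101145 in KI. The smallest amount taken as measurable, 3 counts in a library, was 0.926 to 5.36 CPM (the count relative to its library total), for counting error only. No pair of replicates agreed within sampling noise, with a chi-square per degree of freedom of at least 4.5. All 6 RS and late meiotic marker miRNAs (the miR-34b, miR-34c and miR-449 products) were present in every group, and their summed level was 195349 to 238792 CPM in WT and 170023 to 225211 CPM in KO of batch 1, and 365474 to 420409 CPM in WT and 338495 to 387064 CPM in KI of batch 2.

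The family was represented almost wholly by its 5p products. miR-26a-5p had 229823 counts over the 22 libraries and miR-26b-5p had 53319, while miR-26a-1-3p had 25 and miR-26b-3p had 16. By mean level miR-26a-5p was in place 21 of 937 detected names in batch 1 and in place 26 of 1060 in batch 2, and miR-26b-5p was in places 65 and 68. Reads of a product with several loci may have been counted at each. Among counts of at least 20, 72.0% were even for names with 2 loci and 50.7% for names with 1 locus. The counts of miR-26a-5p were odd in 15 of the 22 libraries, so in those not every read was counted at both loci. As 1 such read makes a total odd, most may still have been counted at both, and how many were was not determined. With all counts divided by the number of loci, miR-26a-5p would be in places 28 and 40.

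miR-26a-5p was higher in KO than in WT in every sample. In CPM scaled by TMM over all libraries, a normalization for library composition, WT replicates 1 to 5 of batch 1 had 5843, 5197, 5721, 6399 and 5585 CPM. KO replicates 1 to 5 had 7898, 8891, 7189, 8013 and 6693 CPM. The lowest KO sample was thus above the highest WT sample, with means of 7737 ± 840 against 5749 ± 437 (SD, n = 5 each). The log2 fold change was 0.46 (SE 0.08), or 1.37-fold with a 95% interval of 1.21 to 1.55, and edgeR's quasi-likelihood test gave an adjusted p of 0.00234 over the 334 miRNAs tested. In that comparison 41.9% of all miRNAs were called at an adjusted p under 0.1, with 21.3% called higher in KO and 20.7% lower. For 19.8% of them the groups were without overlap, and for 8.08% every KO sample lay above. With library totals in place of TMM the median over all tested miRNAs moved on the log2 scale from 0.015 to 0.13, and that of miR-26a-5p was then 0.57. The calls over all miRNAs went from 71 higher and 69 lower to 101 and 44.

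miR-26b-5p, the product with the same seed from Ctdsp1, had a smaller estimate in KO and was not called. WT replicates 1 to 5 had 1511, 1127, 1573, 1501 and 1357 CPM, and KO replicates 1 to 5 had 1700, 2020, 1607, 1660 and 1336 CPM. In KO 4 of the 5 samples were above every WT sample, while KO replicate 5 lay within the WT range. The log2 fold change was 0.26 (SE 0.12, 95% interval 0.0080 to 0.52, edgeR adjusted p 0.104), just outside the threshold. Without KO replicate 5 the adjusted p in edgeR was 0.0397 and without WT replicate 3 it was 0.0937, both inside it. In the other 8 of the 10 fits with 1 sample left out miR-26b-5p was not called, with an edgeR adjusted p of up to 0.268.

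miR-26a-5p was also higher in KI than in the WT samples of batch 2. Its level was 4829, 5305 and 5444 CPM (lowest, median and highest, n = 6) in WT and 6220, 6863 and 7712 CPM (n = 6) in KI. The groups did not overlap, and all 6 KI samples lay above all 6 WT samples. The log2 fold change was 0.40 (SE 0.06), or 1.32-fold with a 95% interval of 1.196 to 1.447 (edgeR adjusted p 5.61e-04 over 387 miRNAs). Of all miRNAs in that comparison 38% were called, 18.1% were called higher in KI and 19.9% lower, the groups were without overlap for 12.4%, and every KI sample lay above for 3.62%. With library totals the median of all miRNAs moved from 0.0009 to 0.088 on the log2 scale and that of miR-26a-5p was 0.48, and the calls went from 70 higher and 77 lower to 96 and 53.

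For miR-26b-5p the KI and WT samples overlapped. WT had 1235, 1335 and 1487 CPM (lowest, median and highest, n = 6) and KI had 1217, 1462 and 1744 CPM (n = 6). KI had both the lowest and the highest sample, and 2 of its 6 samples were above every WT sample. The log2 fold change of 0.15 (SE 0.08, 95% interval -0.024 to 0.33) had an edgeR adjusted p of 0.177 and was not called. It was called when KI replicate 1 (edgeR adjusted p 0.0978) or KI replicate 2 (edgeR adjusted p 0.0592) was left out. In the other 10 of the 12 fits with 1 sample left out it was not called, with an edgeR adjusted p of up to 0.358.

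**Figure D1:**
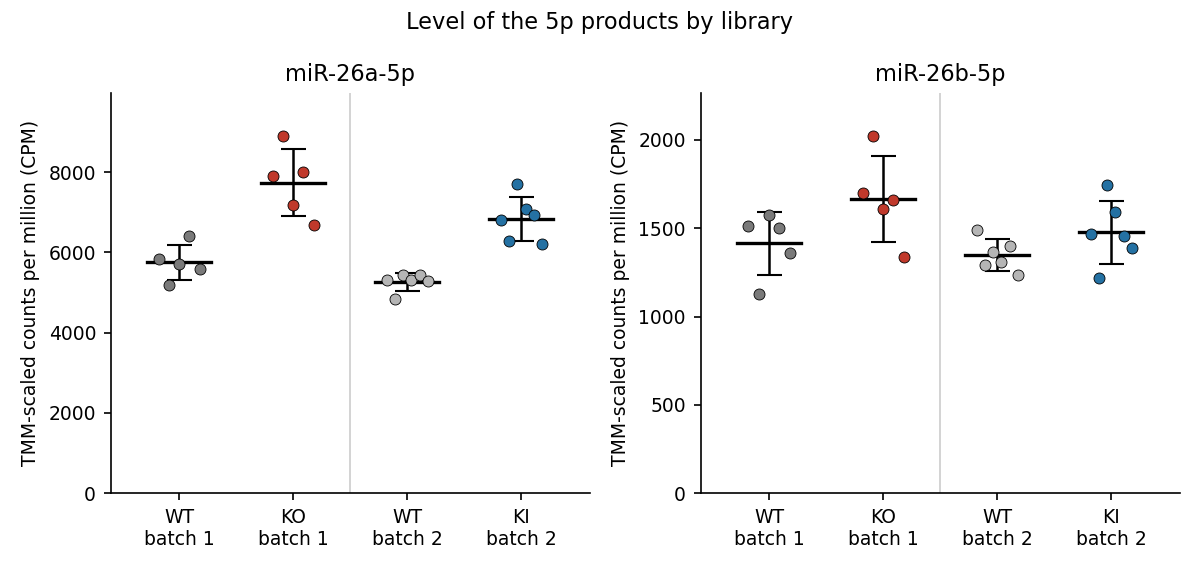
TMM-scaled CPM of miR-26a-5p (left) and miR-26b-5p (right) in each library, by group, with 1 point per library, the group mean as a horizontal bar and the SD as whiskers. For miR-26a-5p every KO and KI point is above the WT points of its batch, while for miR-26b-5p the groups overlap in both batches.

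Together the 5p products with the shared seed summed to 9401 ± 1077 CPM in KO against 7163 ± 581 CPM in its WT samples (SD, n = 5 each). In batch 2 the sum was 8316 ± 722 CPM in KI against 6614 ± 271 CPM in WT (SD, n = 6 each). As a share of all counts miR-26a-5p took 0.948% ± 0.140 in KO against 0.639% ± 0.0676 in WT (SD, n = 5 each), and 0.626% ± 0.0588 in KI against 0.448% ± 0.0379 in WT (SD, n = 6 each). In bulk samples more cells that carry a miRNA and more of it in each cell cannot be told apart.

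The unequal change of both 5p products was tested as the ratio of their counts within each library, which needs no scaling between libraries. In batch 2 the log2 ratio of miR-26a-5p to miR-26b-5p was 2.22 ± 0.08 in KI against 1.97 ± 0.09 in WT (SD, n = 6 each). The lowest KI sample, at 2.14, was above the highest WT sample, at 2.10. The difference was 0.25 (SE 0.05), with an two-sided p of 0.00216 in the exact permutation test, the smallest that its 924 arrangements allow, and an adjusted p of 0.013 over 6 ratio tests. miR-26a-5p therefore rose relative to miR-26b-5p in KI by more than the spread between samples.

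In batch 1 the ratio moved in the same direction and did not pass the threshold of the ratio tests. That threshold was an adjusted p under 0.05, while calls in edgeR used 0.1. It was 2.22 ± 0.08 in KO against 2.03 ± 0.13 in WT (SD, n = 5 each), a difference of 0.19 (SE 0.07, exact permutation p 0.0238, adjusted p 0.0714). In KO 3 of the 5 samples were above every WT sample. WT replicate 2, at 2.20, was the WT sample closest to the KO samples, and without it the exact permutation test gave an adjusted p of 0.0476. With each of the 10 samples left out in turn, 9 of the 10 tests stayed outside the threshold. Their adjusted p in the exact permutation test reached 0.143. Between the WT groups the ratio was lower in batch 2 by a log2 difference of -0.06 (SE 0.07, exact permutation p 0.390, adjusted p 0.468).

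On the linear scale miR-26a-5p had 3.64 to 4.61 counts per count of miR-26b-5p in WT and 4.40 to 5.01 in KO of batch 1, and 3.57 to 4.29 in WT and 4.42 to 5.16 in KI of batch 2. With the counts of miR-26a-5p divided by its 2 loci the median falls from 4.11 to 2.06 in WT and from 4.65 to 2.32 in KO of batch 1. Division of every library by the same number cannot change the log2 differences between groups. Whether the part of reads counted at both loci differed between libraries was not tested. miR-26a-5p was the more abundant product in every library under either count.

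**Figure D2:**
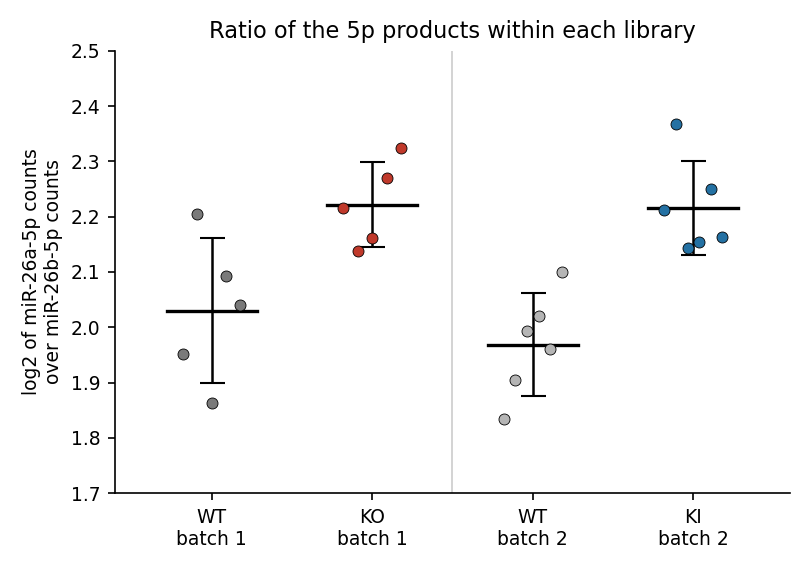
The log2 ratio of miR-26a-5p to miR-26b-5p counts within each library (axis from 1.7 to 2.5), by group, with 1 point per library, the mean as a bar and the SD as whiskers. The 6 KI points lie above the 6 WT points of batch 2, and in batch 1 the KO and WT points overlap.

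The effects in KO and KI, each against the WT samples of its own batch, were then set against each other. For miR-26a-5p the KO effect minus the KI effect was 0.05 on the log2 scale (SE 0.10, 95% interval -0.16 to 0.26, edgeR adjusted p 0.817), and it was negative with RLE size factors, in DESeq2, without the filter on low counts and without KO replicate 2, 4 or 5 (-0.068, -0.058 and -0.011). For miR-26b-5p it was 0.10 (SE 0.14, 95% interval -0.19 to 0.40, edgeR adjusted p 0.755), and without KO replicate 2 it was -0.042. These intervals leave room for a difference between the effects in either direction. Over 421 miRNAs this test called 0% in edgeR and 0 in DESeq2, with 67 at an unadjusted p under 0.05 in edgeR. Without KI replicate 2 the count was 26, and without WT replicate 1 of batch 2 it was 1.

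The WT samples of both batches were compared to see how far levels moved with no change in genotype. miR-26a-5p was lower in batch 2, with a log2 difference of -0.18 (SE 0.06, 95% interval -0.30 to -0.053, edgeR adjusted p 0.019), in a comparison where 56.7% of 383 miRNAs were called, 26.9% were called higher in batch 2 and 29.8% lower, and 37.9% did not overlap (19.3% with batch 2 above). The call was lost without the filter on low counts, at an edgeR adjusted p of 0.504, and in the fit of all 4 groups, at 0.157. With library totals the median of all miRNAs moved from -0.010 to -0.34 and miR-26a-5p to -0.51, and the calls went from 103 higher and 114 lower to 47 and 193. For miR-26b-5p it was -0.12, with an SE of 0.09 and an adjusted p of 0.267 in edgeR, and without WT replicate 2 of batch 1 it was -0.18 (edgeR adjusted p 0.0797). From highest to lowest, the group means of miR-26a-5p ran KO, KI, WT of batch 1 and WT of batch 2, and the samples of each group overlapped with those of the next group in this order. KI was not tested against KO because they come from different batches.

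**Figure D3:**
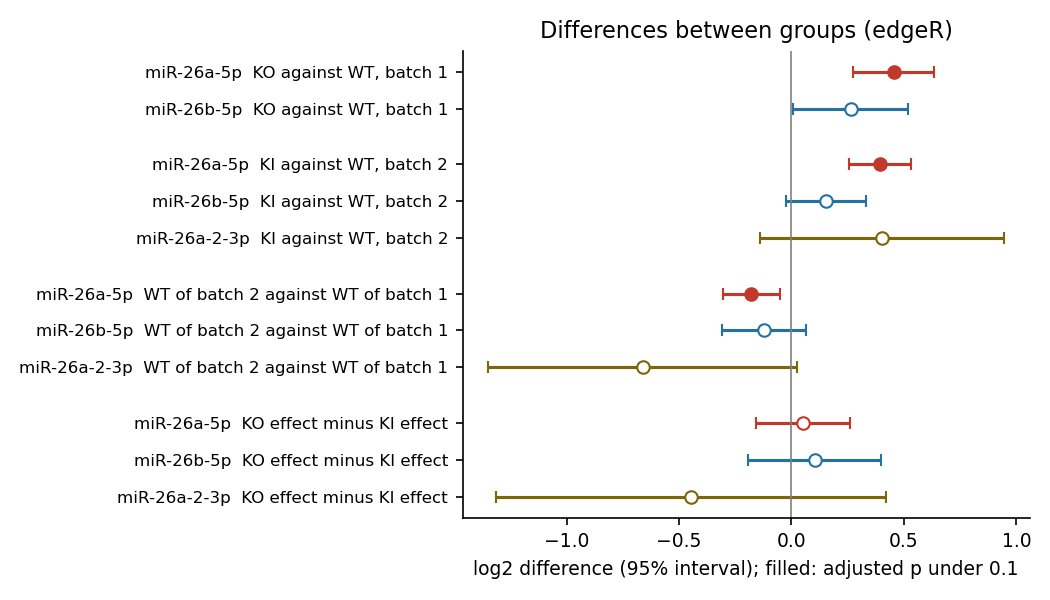
log2 differences of the family between groups in edgeR, with 95% intervals as horizontal bars and filled points for an adjusted p under 0.1. The filled points are miR-26a-5p in KO (0.46), in KI (0.40) and, lower, between the WT groups (-0.18).

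The 3p products were at or under the limit of detection except for that of the Ctdsp2 hairpin. miR-26b-3p had 0 or 1 counts in every WT and KO library and 0 to 3 in KI libraries, and it was at 0 in 9 of 22 libraries. miR-26a-1-3p had 0 to 3 counts in a library and was at 0 in 6. Neither was above 3 counts in any library or passed the filter on low counts, so no fold change is given for them. Of the counts of both miR-26b arms 0.030% were 3p (exact binomial 95% interval 0.0172% to 0.0487%, for counting error only).

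miR-26a-2-3p, from Ctdsp2, was the only 3p product above the limit. WT replicates 1 to 5 of batch 1 had 7, 6, 10, 8 and 3 counts, and KO replicates 1 to 5 had 5, 8, 7, 4 and 2. In batch 2 the counts were 4 to 13 in WT and 6 to 16 in KI. It exceeded miR-26a-1-3p in 21 of 22 libraries, and of the 3p counts of both miR-26a hairpins it took 188 of 213, or 88.3% (exact binomial 95% interval 83.2% to 92.3%). By group the share was 85.0% in WT and 78.8% in KO of batch 1, and 91.5% in WT and 91.4% in KI of batch 2, with intervals that overlap. The 5p sequence is the same for both hairpins, so the counts of miR-26a-5p do not say how much came from each.

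In batch 1 miR-26a-2-3p did not pass the filter on low counts. In batch 2 its level was 5.32 ± 1.38 CPM in KI against 3.99 ± 1.14 CPM in WT (SD, n = 6 each), and the log2 fold change was 0.40 (SE 0.25, 95% interval -0.14 to 0.94, edgeR adjusted p 0.25). The estimate was close to that of miR-26a-5p, with an interval that includes 0. Between the WT groups its log2 difference was -0.66, with an SE of 0.32 and an adjusted p of 0.101 in edgeR, and without WT replicate 5 of batch 1 the adjusted p in edgeR was 0.0360. The log2 ratio of miR-26a-5p to miR-26a-2-3p differed by 0.46 (SE 0.32) between KO and WT (exact permutation p 0.175, adjusted p 0.262) and by -0.020 (SE 0.21) between KI and WT (exact permutation p 0.924, adjusted p 0.924). Between the WT groups it differed by 0.50 (SE 0.30, exact permutation p 0.113, adjusted p 0.225), and without WT replicate 5 of batch 1 by 0.74 (exact permutation test, adjusted p 0.0476). No difference in the ratio of miR-26a-5p to miR-26a-2-3p between mutant and WT was detectable at this depth. That ratio sets the 5p product of both miR-26a hairpins against the 3p product of Ctdsp2 alone, so it is not the arm balance of a hairpin. The arms of miR-26b were not compared between groups, because miR-26b-3p was never above 3 counts in a library.

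**Figure D4:**
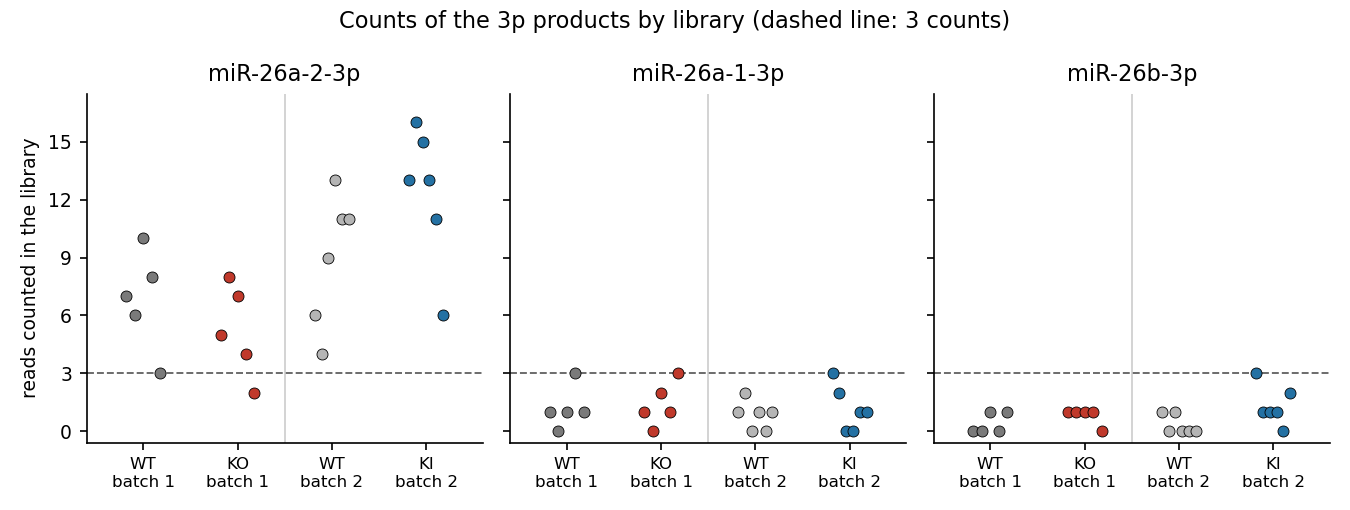
Reads counted for miR-26a-2-3p, miR-26a-1-3p and miR-26b-3p in each library, by group, with a dashed line at 3 counts. Only miR-26a-2-3p lies above the line, in 20 of the 22 libraries.

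The miRNAs whose levels followed the family most closely were named by Pearson's r over the 22 libraries, on log2(CPM + 1) with the mean of each batch removed, among 305 miRNAs with at least 10 CPM in each batch. This is a description of libraries that share depth and composition, and names with shared reads are not separate results. For miR-26a-5p they were miR-10b-5p (r 0.953), miR-199a-5p (0.909), miR-199b-3p (0.894), miR-199a-3p (0.894) and miR-23a-3p (0.891). miR-10b is a Hox cluster miRNA, and the miR-199 products are known for their abundance in fibroblasts and smooth muscle. For miR-26b-5p they were let-7c-5p (r 0.932), miR-199a-5p (0.891), miR-199a-3p (0.885), miR-199b-3p (0.885) and miR-101a-3p (0.879). Between miR-26a-5p and miR-26b-5p r was 0.773, in place 22 for miR-26a-5p and place 16 for miR-26b-5p. These r include the difference between mutant and WT, since only batch means were removed. With the mean of each group removed instead, r between miR-26a-5p and miR-26b-5p was 0.844, in place 3 for miR-26a-5p and place 7 for miR-26b-5p. For miR-26a-5p, miR-10b-5p was then in place 2 (r 0.855) and miR-199a-5p in place 4. miR-199b-3p, miR-199a-3p and miR-23a-3p were then in places 7, 8 and 13. For miR-26b-5p, let-7c-5p was then in place 3 (r 0.908). Only names from the first ranking were followed in this way.

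Some members of the vessel and stroma list and of the blood and immune list were higher together with miR-26a-5p in both mutants. Of 7 vessel and stroma miRNAs 5 were tested in each comparison, and 4 were higher and 0 lower in KO (median log2 fold change 0.96), where over all miRNAs 21.3% were higher, 20.7% were lower and the median was 0.015. In KI 4 were higher and 0 lower (median 0.58), against 18.1% higher, 19.9% lower and a median of 0.0009 over all miRNAs. miR-199a-3p, the most abundant of them, changed by 0.96 in KO (SE 0.25) and by 0.78 in KI (SE 0.19), with adjusted p of 0.013 and 0.00724 in edgeR, while the endothelial miR-126a-3p was not called, at 0.38 and -0.039. The called members include both arms of miR-199a in KO and in KI, so they are not all independent. The summed level of the list was 773 to 2136 CPM in WT and 1946 to 4044 CPM in KO, and 1421 to 2361 CPM in WT and 2210 to 4952 CPM in KI.

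Of 8 blood and immune cell miRNAs 7 were tested, and 4 were higher and 0 lower in KO (median 0.68) and 6 were higher and 0 lower in KI (median 0.56). These counts and those of the lists that follow stand beside 21.3% higher and 20.7% lower over all miRNAs in KO (median 0.015) and 18.1% and 19.9% in KI (median 0.0009). Their summed level was 4444 to 5407 CPM in WT and 5005 to 6995 CPM in KO, and 3225 to 4279 CPM in WT and 4065 to 6426 CPM in KI. miR-142a-3p, a miRNA of blood cells and the most abundant of the list, was not called in KO (log2 fold change 0.11, SE 0.10, edgeR adjusted p 0.391) and rose in KI by 0.52 (SE 0.10, edgeR adjusted p 0.00175). Its other arm, miR-142a-5p, is also among the 6 counted as higher in KI, so these are not all independent. Of 5 muscle miRNAs 1 was tested in KO and was higher, and 3 were tested in KI with none called, while miR-133b-3p and miR-206-3p were at 0 in every library. The summed level of the muscle list was 12.9 to 38.7 CPM in WT and 24.4 to 152 CPM in KO, and 52.2 to 768 CPM in WT and 46.7 to 527 CPM in KI. Of 7 miRNAs of pluripotent and early germ cells 2 were tested, with none called in KO and 1 higher in KI, and their summed level was 78.1 to 125 CPM in WT and 74.9 to 114 CPM in KO, and 48.4 to 74.2 CPM in WT and 63.5 to 96.2 CPM in KI. Of the 6 RS markers 1 was higher and 2 lower in KO, and 0 were higher and 1 lower in KI. miR-34c-5p had log2 fold changes of -0.21 (SE 0.08) against WT in KO and -0.11 (SE 0.04) in KI, with adjusted p of 0.0809 and 0.0271 in edgeR. The part of other cells in the level of miR-26a-5p was not tested.

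Other miRNAs hosted in introns of protein-coding genes were listed beside the family. Of 29 listed, 24 were tested in each comparison. In KO 1 was higher and 8 lower, with a median log2 fold change of -0.15, against 21.3% higher, 20.7% lower and a median of 0.015 over all miRNAs. In KI 5 were higher and 11 lower, with a median of -0.17, against 18.1% higher, 19.9% lower and a median of 0.0009. The direction of this list was not tested against all miRNAs. The 4 most abundant, miR-103-3p, miR-93-5p, miR-25-3p and miR-30e-5p, changed by -0.19, -0.15, -0.19 and 0.011 in KO and by -0.27, -0.18, -0.17 and 0.14 in KI. Of these miR-103-3p and miR-93-5p were called in KO, and miR-103-3p, miR-25-3p and miR-30e-5p in KI.

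The let-7 family, whose maturation miR-26 is known to favour, had called members in both directions. All 9 products were tested, and 1 was higher and 1 lower in KO (median log2 fold change 0.11) and 1 was higher and 2 lower in KI (median -0.021), while 41.9% of all miRNAs were called in KO and 38% in KI. let-7a-5p, the most abundant, changed by -0.14 in KO (SE 0.06) and by -0.15 in KI (SE 0.04), with adjusted p of 0.0731 and 0.0220 in edgeR. let-7c-5p changed by 0.53 (SE 0.22, edgeR adjusted p 0.0892) in KO and was not called in KI, at 0.29 (SE 0.13, edgeR adjusted p 0.103). The summed level of the family was 53418 to 61473 CPM in WT and 50995 to 62115 CPM in KO, and 49854 to 54903 CPM in WT and 48200 to 54755 CPM in KI.

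**Figure D5:**
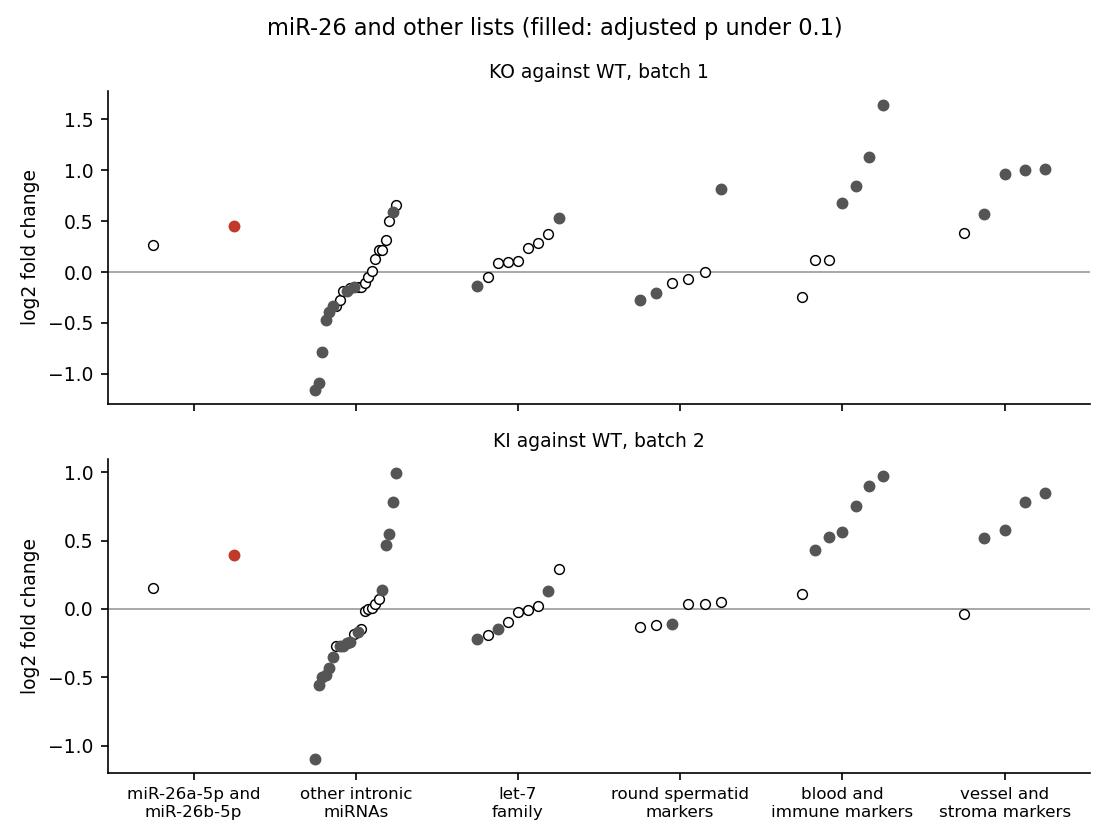
log2 fold changes in KO (top) and KI (bottom) of miR-26a-5p and miR-26b-5p and of the tested members of the lists, each ordered by value, with filled points for an adjusted p under 0.1. miR-26a-5p (0.46 and 0.40) lies above most intronic and let-7 miRNAs and below every called vessel and stroma marker.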

How the data were processed

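Small RNA of the 22 RS samples was sequenced after a Qiagen small RNA library preparation. The deposited values are raw counts per mature miRNA, made by the authors with cutadapt 3.4 (reads of at least 15 bases kept), Bowtie2 2.4.2 on GRCm38 (local, up to 100 alignments a read) and featureCounts of Subread 2.0.1 with strand on miRBase, with duplicates kept. How reads that align to several loci were counted is not given in the sources used here. Levels are CPM scaled by TMM over all 4 groups, while fold changes come from fits within a batch. Counts were tested in edgeR 4.0.16 (DESeq2 1.42.0 as an alternative) by the quasi-likelihood test after filterByExpr, each mutant against WT of its batch as in the study, with Benjamini-Hochberg adjustment and a call at an adjusted p under 0.1. The edgeR script was tested on simulated data with changes larger than those of this family, so its recovery of changes this small was not tested. Within-library log2 ratios of counts, each plus 0.5, were compared by two-sided exact permutation tests with a threshold of 0.05 after adjustment over 6 tests. Batches are the experimental batches of the labels, and their numbers here follow the label order. The labels do not say whether replicate numbers pair the samples, and the main tests treat the samples as unpaired. The deviations of same-numbered samples correlated at 0.020 on average in batch 1 (-0.106 to 0.155) and 0.179 in batch 2 (-0.107 to 0.501). Whether the numbers pair the samples of batch 2 was not settled. Depth is given with the results, and exact binomial intervals of shares cover counting error only, while intervals of fold changes come from the edgeR fits and include the spread between samples. From each list up to 4 members with the highest mean level were named, and for likeness the 5 highest r; the other members named were chosen after their values were seen. The members and lists were chosen with earlier results of these data known. Alternatives were RLE size factors, library totals, no filter, DESeq2, a fit of all groups, a replicate block, counts divided by loci, another added count and leaving out each sample.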

Additional observations from a re-analysis of the deposited data

Results flagged for a closer look

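In WT replicate 2 of batch 2 miR-26a-5p was the lowest of its group and stood apart from the other 5 samples, at 12.2 on the log2(CPM + 1) scale (12.238 against 12.370 to 12.411), with its distance to the next sample at 0.765 of the whole range. Of 20 combinations of a measure and a group that were screened 1 stood out, and chance gives about 1. Without this sample the log2 fold change of miR-26a-5p in KI was 0.38 (edgeR adjusted p 8.41e-04).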

How the results depend on the processing

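Of 383 alternative values of 21 results, 350 kept their direction and their side of the threshold (or a count within 1.5 times), 3 lost a call, 15 gained one, 3 counts moved and 12 values changed sign. The cause was not tested. The rise of miR-26a-5p was called under every alternative run in KO (0.40 to 0.57) and KI (0.36 to 0.48). miR-26b-5p in KO was called with RLE size factors (0.28, edgeR adjusted p 0.0918), library totals (0.38) and DESeq2 (0.28), and in KI with library totals (0.24). Between the WT groups miR-26a-5p was not called without the filter (-0.088) or in the fit of all groups (-0.13), miR-26b-5p was called with library totals (-0.46), and miR-26a-2-3p with library totals (-0.99) and with counts divided by loci (-0.71). The KO effect minus the KI effect of miR-26a-5p was -0.0091 with RLE size factors, -0.026 without the filter and -0.0089 in DESeq2. The log2 ratio of miR-26a-5p to miR-26a-2-3p in KI was 0.0046 with 1 added to each count. With a replicate block, 25 miRNAs differed between the KO and KI effects (0 without the block), and whether the numbers pair the samples was not settled. Paired by number, the ratio of miR-26a-5p to miR-26b-5p in KI, still 0.25, had an adjusted p of 0.0938 in the exact sign-flip test. With 6 pairs that test cannot give a p below 0.0312, which is the p it gave, so it could not pass after adjustment and says nothing about stability. The block called 124 miRNAs in KO and 165 in KI. In KO 2 of 5 samples and in KI 3 of 6 correlated best with their own number.

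Leaving out each sample in turn, the log2 difference of miR-26b-5p ran from 0.18 to 0.33 in KO, from 0.099 to 0.21 in KI and from -0.18 to -0.067 between the WT groups. The KO effect minus the KI effect ran from -0.068 to 0.11 for miR-26a-5p and from -0.042 to 0.16 for miR-26b-5p, with 0 to 26 miRNAs called. The ratio of miR-26a-5p to miR-26b-5p ran from 0.15 to 0.24 in KO and from -0.10 to -0.018 between the WT groups, and that to miR-26a-2-3p from 0.30 to 0.69 in KO, from -0.13 to 0.098 in KI and from 0.35 to 0.74 between the WT groups. Depth limits the 3p products, of which 2 were never above 3 counts in a library.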
